A study of Mus musculus with 4 samples.

Results

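Erythroid cells are red blood cells and their immature forms, the cells that carry oxygen with hemoglobin. They were sought here among single cells of regenerating mouse digits as barcodes in which 4 globin genes, Hbb-bs, Hbb-bt, Hba-a1 and Hba-a2, together supplied 10% or more of the unique molecular identifiers (UMIs, each 1 captured transcript). Barcodes were first kept with 200 to 5500 genes, at most 30000 UMIs and at most 10% mitochondrial UMIs, which left 93602 of 113503 deposited barcodes. Of these, 426 were erythroid by the globin rule. Their globin levels chose them, so these levels are given as a description and were not tested.

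In the mouse, adult hemoglobin pairs alpha chains from Hba-a1 and Hba-a2 with beta chains from Hbb-bs and Hbb-bt, and each chain holds a heme group. A precursor in the marrow fills itself with globin messenger RNA, extrudes its nucleus to become a reticulocyte, sheds its mitochondria and ribosomes, and circulates as a red cell that can no longer make new RNA. Circulating reticulocytes and young red cells still carry globin RNA, so blood that remains in a dissected tissue can enter a single-cell library.

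The 4 libraries are labelled P3 digit, P3 being the terminal phalanx, and came from hindlimb toes of female C57BL/6 mice aged 6 to 8 weeks. The toes were cut at the base of the middle phalanx, so the tissue was not the terminal segment alone, and each library pooled the digits of 10 mice. The text of the study places them at 8 days postamputation (DPA), although 1 figure legend gives 5 DPA for the diet pair. The LNR library followed surgical lymph node removal, and its control, here called sham, came from the other limb according to the study's text, while its label records no treatment. The SAR131675 library came from mice on chow with 30 mg/kg SAR131675, an inhibitor of the lymphatic receptor VEGFR3, and the control diet library from mice on chow without it. The labels give 8 days of diet, whereas in the methods chow began 5 days ahead of amputation. All 4 suspensions were treated with ACK buffer for 2 minutes, a step that lyses red cells, so the number of erythroid barcodes reflects what remained after lysis. There was 1 library per condition, and the labels number each one as a separate batch, so batch and condition cannot be told apart and differences between libraries of a pair have no replicate check.

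The libraries held 168507188 (LNR), 175998346 (sham), 585284877 (SAR131675) and 448276501 (control diet) UMIs. Kept barcodes had a median of 5725, 5851, 11316 and 10712 UMIs in the same order. Cell barcodes were shared by 130 of the LNR and sham barcodes and by 348 of the SAR131675 and control diet barcodes, and by 0 to 3 in the other pairs of libraries. No barcode was erythroid in both libraries of any pair. Doublets were left in.

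The starts of the 4 globin genes, and of Alas2, which encodes the erythroid enzyme of the first step of heme synthesis and had the most UMIs of the listed erythroid genes in these barcodes, are shown because the erythroid barcodes are defined by the first 4 and described best by the fifth. Each sequence is the 120 bases before the RefSeq start in GRCm38.p6, read 5′ to 3′ on the strand of the gene. The submitters' notes name GRCm39 for the counts, and no coordinate of the counts is used. Capitals mark 4 short motifs found on either strand, the motif CCAAT and the motif CACCC, the motif GATA that GATA factors bind, and the motif TATAA of the TATA box.
Hbb-bs (chr7:103827929-103828048, minus strand): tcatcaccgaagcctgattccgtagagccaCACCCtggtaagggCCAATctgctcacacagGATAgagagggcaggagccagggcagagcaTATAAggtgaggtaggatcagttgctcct
Hbb-bt (chr7:103813924-103814043, minus strand): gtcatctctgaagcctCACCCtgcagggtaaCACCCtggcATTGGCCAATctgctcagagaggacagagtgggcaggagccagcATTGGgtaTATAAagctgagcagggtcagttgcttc
Hba-a1 (chr11:32283552-32283671, plus strand): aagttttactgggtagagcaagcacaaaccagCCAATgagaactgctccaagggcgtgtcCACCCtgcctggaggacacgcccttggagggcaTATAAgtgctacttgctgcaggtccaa
Hba-a2 (chr11:32296372-32296491, plus strand): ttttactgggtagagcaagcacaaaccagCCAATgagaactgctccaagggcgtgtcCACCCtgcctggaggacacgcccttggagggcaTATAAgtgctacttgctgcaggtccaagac
Alas2 (chrX:150547297-150547416, plus strand): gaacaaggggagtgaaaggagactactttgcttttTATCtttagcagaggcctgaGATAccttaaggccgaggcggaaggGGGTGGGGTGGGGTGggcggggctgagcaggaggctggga

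The motif TATAA stood 1 time in each of the 4 globin windows, starting 27 to 30 bases before the start, and 0 times in the Alas2 window. Over 32851 promoter windows of this length, 11.8% held it. The motif CCAAT was found 1 time in Hbb-bs, Hba-a1 and Hba-a2 and 3 times in Hbb-bt, and 21.3% of all windows held it. The motif CACCC was found in all 5 windows, against 31.7% of all windows, and its 3 matches in Alas2 lie end to end. GATA was found 2 times in Alas2 and 1 time in Hbb-bs, and 29.5% of all windows held it. A match in such a window is a description of its letters and does not show that a factor binds there.

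The LNR library had 63 erythroid barcodes among 19827 kept, a share of 0.318% (95% exact binomial interval 0.244 to 0.406). The sham library had 26 among 20669, or 0.126% (0.0822 to 0.184). SAR131675 had 181 among 29076, or 0.623% (0.535 to 0.720). The control diet library had 156 among 24030, or 0.649% (0.552 to 0.759). These intervals, like all others given, cover counting error only and do not cover differences between mice, in the blood left in the tissue or in lysis. The shares depended on the rule and the limits. From 20% globin they were 0.166, 0.0532, 0.430 and 0.441% in LNR, sham, SAR131675 and control diet, and from 5% globin 0.419, 0.203, 0.870 and 0.974%. With at least 500 genes per barcode SAR131675 was at 0.315% and control diet at 0.408%.

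Within the pairs, the share of erythroid barcodes was higher in LNR than in sham, with a log2 ratio of 1.34 (0.66 to 2.06). For SAR131675 over control diet the log2 ratio was -0.061 (-0.38 to 0.26), an interval that includes 0, and no difference could be detected with these counts. The members held 73.5% of all globin UMIs of kept barcodes in LNR, 42.2% in sham, 72.9% in SAR131675 and 68.8% in control diet, and the remainder lay in barcodes under 10% globin.

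The barcodes just inside the 10% limit had 10.2, 10.8, 10.0 and 10.1% globin UMIs in LNR, sham, SAR131675 and control diet, and those just outside had 9.97, 9.31, 9.78 and 9.97%.

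Most globin-rich barcodes did not enter the erythroid set, because they held too few genes. Among all deposited barcodes, 2473 had 10% or more globin UMIs, and 2019 of these (81.6%) had fewer than 200 genes. None exceeded the upper limits on genes or UMIs, and 66 were over the mitochondrial limit. Conversely, 61.7% of the 3274 deposited barcodes with fewer than 200 genes were globin-rich. Their median was 1225 UMIs and 95 genes, with 90.5% globin UMIs. The limit of 200 genes thus removed more globin-rich barcodes than it left.

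**Figure D1:**
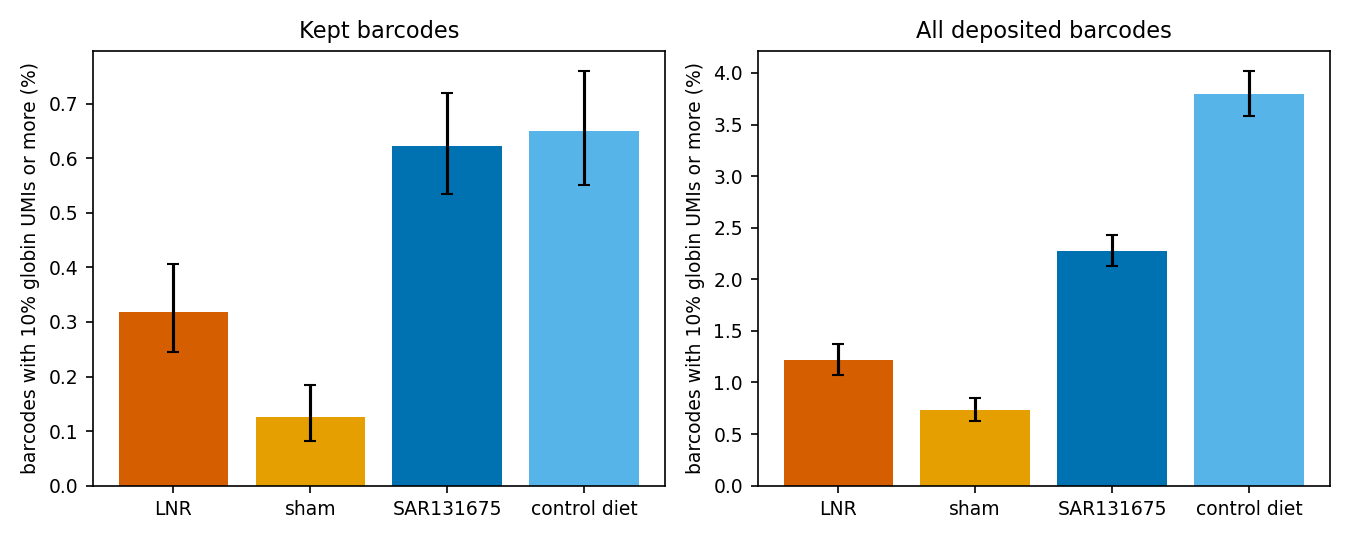
Share of barcodes with 10% globin UMIs or more in each of the 4 libraries, as a percentage of kept barcodes (left axis panel) and of all deposited barcodes (right panel); bars start at 0 and lines are 95% exact binomial intervals. Among kept barcodes SAR131675 (0.623%) and control diet (0.649%) overlap, and LNR (0.318%) lies above sham (0.126%). Among all deposited barcodes control diet (3.79%) lies above SAR131675 (2.27%).

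Among kept barcodes the log2 ratio of SAR131675 over control diet, at -0.061 (-0.38 to 0.26), had no settled direction. The ratio moved when all barcode limits were lifted at once. Without any limit on barcodes, and over all deposited barcodes, the log2 ratio of SAR131675 over control diet was -0.74 (-0.87 to -0.61). Globin-rich barcodes under 200 genes made up 1.76% of deposited SAR131675 barcodes and 3.27% of deposited control diet barcodes.

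The 426 barcodes were not uniform. In 161 of them globin supplied at least 50% of the UMIs, and in 265 it supplied 10 to 50%. The globin-dominated barcodes numbered 8 in LNR, 3 in sham, 89 in SAR131675 and 61 in control diet, and the others 55, 23, 92 and 95. Globin-dominated barcodes had a median of 3068 UMIs, 238 genes and 84.4% globin. The barcodes with 10 to 50% globin had a median of 5791 UMIs, 1877 genes and 18.4% globin, against 8614 UMIs and 2874 genes in the other kept barcodes.

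Mitochondrial transcripts made up a median of 0.227% of UMIs in globin-dominated barcodes, 1.77% in those with 10 to 50% globin and 2.28% in the other kept barcodes. In LNR the first 2 medians were 2.23% (8 barcodes) and 2.19% (55 barcodes), so that library showed no such fall between them. Mature red cells lack mitochondria. Because a share of UMIs falls when globin fills the barcode, this value is partly set by the rule.

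**Figure D2:**
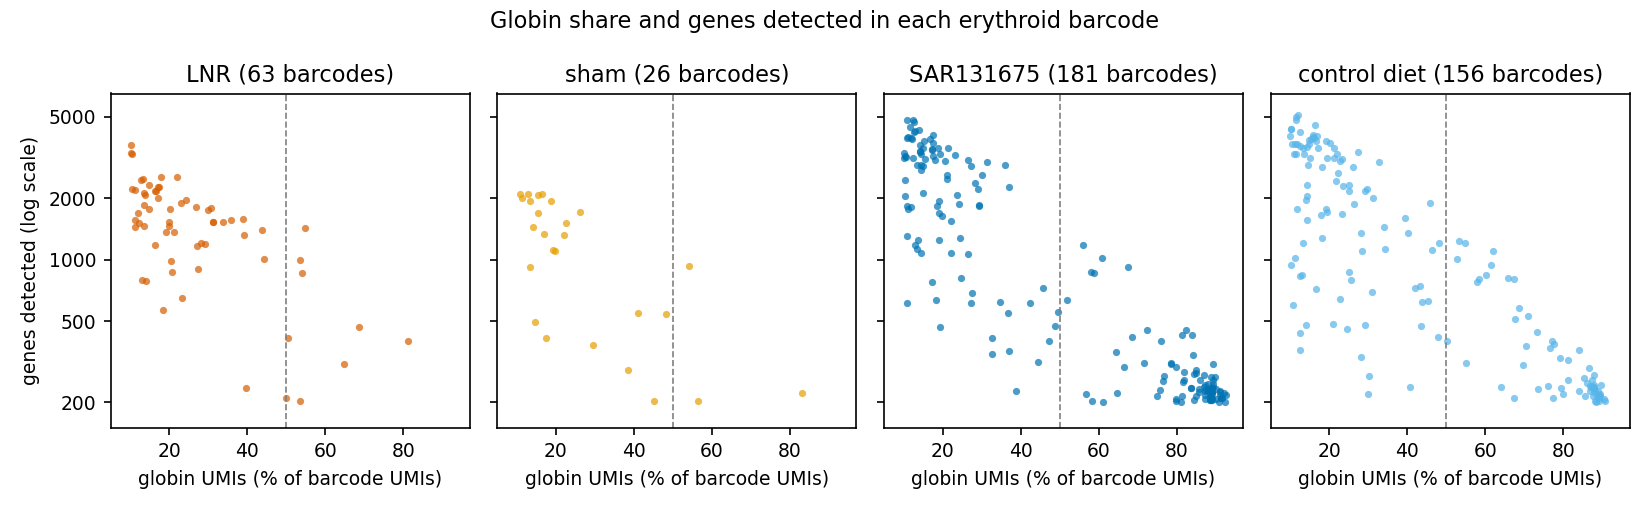
Each point is 1 of the 426 erythroid barcodes, by globin UMIs as a percentage of its UMIs (horizontal axis) and genes detected (vertical axis, log scale), in 1 panel per library; the dashed line marks 50% globin. SAR131675 and control diet have a dense group above 80% globin with just over 200 genes, next to the lower limit, whereas LNR and sham have 1 barcode each above 80%.

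Between SAR131675 and control diet the log2 ratio of shares was 0.27 (-0.22 to 0.76) for globin-dominated barcodes and -0.32 (-0.75 to 0.11) for those with 10 to 50% globin. Both intervals include 0. For LNR over sham it was 1.32 (0.59 to 2.09) for barcodes with 10 to 50% globin and 1.48 (-0.58 to 4.02) for globin-dominated ones, of which there were only 8 and 3.

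The proportions among the globin genes were not used by the rule. Hbb-bt, the beta gene with fewer UMIs of the adult pair, supplied 15.8% (15.5 to 16.1) of beta globin UMIs in LNR erythroid barcodes, 16.3% (15.7 to 16.9) in sham, 18.2% (18.04 to 18.38) in SAR131675 and 19.7% (19.5 to 19.9) in control diet. In the other kept barcodes of the same libraries it supplied 8.89, 12.8, 9.91 and 10.9%. The share was thus higher in erythroid barcodes in 4 of 4 libraries, and the groups did not overlap.

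The share also varied among erythroid barcodes. It was 20.1, 20.3, 19.2 and 20.3% in globin-dominated barcodes of LNR, sham, SAR131675 and control diet, and 14.9, 15.5, 16.5 and 19.0% in those with 10 to 50% globin. Over summed UMIs it was higher in the globin-dominated barcodes of all 4 libraries. The rise with globin was not steady in the diet pair. At 50 to 80% globin the share was 16.4% in SAR131675 and 17.5% in control diet, against 16.7 and 19.1% at 25 to 50%. In LNR and sham it was 20.7 and 25.3% against 16.6 and 15.5%, from 7 and 2 barcodes at 50 to 80%. Single barcodes with at least 200 beta globin UMIs ranged from 0.287 to 33.3%, and the median over them was lower in globin-dominated barcodes of sham (14.6%, 3 barcodes) than in those with 10 to 50% globin (15.3%). In the globin-rich barcodes under 200 genes it was 15.0, 15.4, 13.8 and 15.6%.

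**Figure D3:**
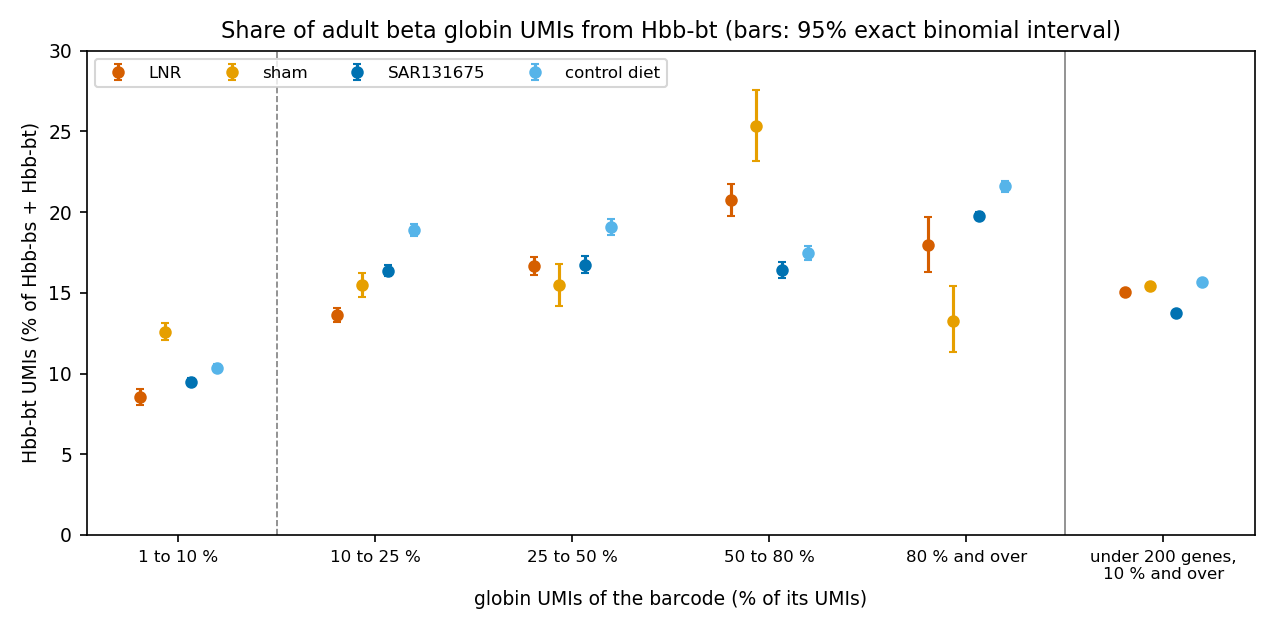
Hbb-bt UMIs as a percentage of Hbb-bs plus Hbb-bt UMIs (vertical axis) summed over barcodes in bins of globin share (horizontal axis), in each library; lines are 95% exact binomial intervals, the dashed line marks the 10% rule, and barcodes under 200 genes are at the far right. Shares of 8.54 to 12.6% at 1 to 10% globin contrast with 13.6 to 18.9% at 10 to 25% globin, and the LNR and sham points at 80% and over rest on 1 barcode each. Barcodes under 1% globin are not drawn, and at 0 to 0.1% globin the shares were 10.7% (LNR), 13.3% (sham), 12.8% (SAR131675) and 13.4% (control diet).

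Among globin-rich barcodes under 200 genes, the Hbb-bt share was 16.1% in control diet barcodes that had an Alas2 UMI and 8.87% in those that had none, at median depths of 1461 and 710.5 UMIs. The part of depth was not tested. The corresponding shares were 14.6 and 7.93% in SAR131675, 15.8 and 8.70% in LNR, and 15.7 and 13.02% in sham, where the gap was smaller.

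Hba-a2 supplied 44.1 to 46.0% of alpha globin UMIs in erythroid barcodes over the 4 libraries, and 43.0 to 45.0% in the other kept barcodes. The alpha genes together supplied 37.2% of globin UMIs in LNR, 36.2% in sham, 41.3% in SAR131675 and 42.6% in control diet, so that the 2 libraries of each pair were closer to each other than to the other pair. The pairs also differ in depth and in the Cell Ranger version of the file headers, whose part was not tested. The copies are close in sequence. The longest reference transcripts of Hba-a1 (699 bases) and Hba-a2 (554 bases) differ by 17 edits over the shorter, and those of Hbb-bs (628 bases) and Hbb-bt (703 bases) by 47, so the division of reads between copies is uncertain.

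The embryonic globin genes Hbb-bh1, Hbb-y and Hba-x had 0 UMIs in the 426 barcodes, where 0 allows up to 1.92 CPM. The theta globin genes Hbq1a and Hbq1b had 30 and 48 UMIs there, and the 2 are near copies as well. In globin-dominated barcodes Hbq1a was at 234 CPM in SAR131675 and 129 CPM in control diet, and Hbq1b at 468 and 411 CPM, while in the other kept barcodes of the 4 libraries each was at 0.0030 to 0.024 CPM.

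The label was checked against a list of 22 erythroid genes that the rule did not use, of which 21 were in the files. Levels are given as CPM, the UMIs of a gene divided by all UMIs outside the 4 globin genes and scaled to 1000000. Erythroid barcodes held 1562741 UMIs outside these genes, of which 1469565 came from barcodes with 10 to 50% globin. Levels and tests over all erythroid barcodes thus rest on sums that come mostly from that part. The list summed to 1590, 2005, 5232 and 4924 CPM in erythroid barcodes of LNR, sham, SAR131675 and control diet, against 75.2, 72.1, 87.3 and 89.4 CPM in the other kept barcodes, called elsewhere in what follows. Globin-dominated barcodes carried a median of 23 UMIs of the list and 5 of 161 had none. Barcodes with 10 to 50% globin carried a median of 6, and 17 of 265 had none.

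Alas2 was the leading gene of the list. At least 1 UMI of it was found in 84.1% of LNR, 73.1% of sham, 85.1% of SAR131675 and 87.8% of control diet erythroid barcodes. In other kept barcodes with 3 or more keratinocyte genes, cells that should lack it, the shares were 0.486, 0.624, 0.973 and 1.31%, at greater depth (median 8587, 8335, 12154 and 11819 UMIs against 5177, 3807.5, 3497 and 3617.5). With each barcode thinned to 500 UMIs, globin included, the shares in erythroid barcodes were 28.6, 26.9, 42.0 and 46.2%, and in those keratinocyte-type barcodes at most 0.150%.

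Expression outside the globins was compared between erythroid and other kept barcodes over the 4 libraries as replicates, with edgeR's quasi-likelihood test on UMIs summed per library, a term for the library and the 4 globin genes removed. Of 17422 genes tested, 176 were higher (1.01%) and 354 lower (2.03%) in erythroid barcodes at an adjusted p under 0.05, and the median log2 fold change was -0.15. Of the 22 listed erythroid genes, 15 were tested and 14 were higher, but 3 of the 14 entered the test only through the erythroid sums, where they are high, and had to differ. Of the 11 that reached the filter's level in the other barcodes too, 10 were higher and Hemgn did not pass. The remaining higher gene, Ermap, reached that level in neither group alone. Because the sums mix cells, and the 4 libraries carry the spread between these samples only, p-values do not extend to separate mice. With sham taken from the other limb, LNR and sham may also share mice, which the labels do not state. The 4 libraries are then not 4 separate pools of mice. In bulk sums of this kind, fewer cells of a type and less RNA per cell cannot be told apart.

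Few genes of heme synthesis and iron handling passed in the test over all erythroid barcodes. Most UMIs outside the globins in that test's erythroid sums came from barcodes that were not globin-dominated. Alas2 was at 662 CPM in LNR, 485 in sham, 1267 in SAR131675 and 1262 in control diet erythroid barcodes, against 0.561, 0.930, 1.13 and 1.54 CPM in other kept barcodes. The groups did not overlap, and the log2 fold change was 9.63 (adjusted p = 1.14e-28, edgeR). Of 14 listed genes of heme synthesis, all tested, Alas2, Fech and Slc25a37 were higher and none was lower, while the list's median log2 fold change was 0.09. Fech, which inserts iron into the ring as the last step, had a log2 fold change of 2.79 (adjusted p = 3.35e-13, edgeR). Slc25a37, the mitoferrin that carries iron into mitochondria, had one of 3.92 (adjusted p = 8.71e-16, edgeR).

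The other listed steps did not pass. Cpox, which acts late in the pathway, was at -0.18 on the log2 scale. Alas1, the form of the first enzyme used outside the red lineage, was at -0.65 (adjusted p = 0.519, edgeR), with 24 UMIs in erythroid barcodes against 1743 of Alas2. With only barcodes holding a UMI of the leukocyte gene Ptprc as comparator, both passed. Cpox was then higher (0.98, adjusted p = 0.0189, edgeR) and Alas1 lower (-1.15, adjusted p = 0.0326, edgeR).

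Of 11 iron-handling genes, 10 were tested. Ftl1, the ferritin light chain, was higher (log2 fold change 0.78, adjusted p = 0.000727, edgeR), and Slc40a1, the iron exporter ferroportin, was lower (-3.36) with 2 UMIs in the 426 barcodes. Slc40a1 entered the test only through the other barcodes, where it is high. Tfrc, the transferrin receptor that precursors use to take up iron, was at -0.15 and did not pass (adjusted p = 0.867, edgeR). With only barcodes holding a UMI of Ptprc, the leukocyte gene, as comparator, Ftl1 turned to -1.33 and Tfrc was lower (-1.18, adjusted p = 0.00207, edgeR). With only globin-dominated barcodes Ftl1 was at 1.37 and did not pass (adjusted p = 0.634, edgeR), nor did Ftl1 pass without the library term (0.76).

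Genes of the red cell membrane and its skeleton rose in part. Of 18 listed, 14 were tested and 7 were higher, none lower. Of the 10 that reached the filter's level in the other barcodes too, 3 were higher. Slc4a1, which encodes band 3, the chloride and bicarbonate exchanger that anchors the skeleton, was at 11.2, 86.3, 102 and 148 CPM in LNR, sham, SAR131675 and control diet erythroid barcodes, from 3, 8, 62 and 88 UMIs. The LNR and sham values rest on few UMIs. Elsewhere it was at 0.0070 to 0.057 CPM, so it entered the test only through the erythroid sums, and no p is given. Epb41, encoding protein 4.1, was higher by 2.63 and Sptb and Ank1 also passed, while Cd47 (0.12) and Add1 (-0.11), which many cell types express, did not. Ermap passed from 10 UMIs in erythroid barcodes, but it reached the filter's level in neither group alone. Without the library term Epb41 was at 2.78 and did not pass (adjusted p = 0.115, edgeR).

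Tspo2, an erythroid relative of the mitochondrial translocator protein, had 39 UMIs in erythroid barcodes and 4 in all others, and it too entered the test only through the erythroid sums.

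Among red cell enzymes, 9 of 10 were tested and 5 were higher. Bpgm, which makes the 2,3-bisphosphoglycerate that lowers the oxygen affinity of hemoglobin, was at 217, 464, 1013 and 896 CPM in erythroid barcodes of LNR, sham, SAR131675 and control diet, against 13.3 to 17.0 CPM elsewhere (log2 fold change 5.13, adjusted p = 1.12e-19, edgeR). Car2, carbonic anhydrase 2, which interconverts carbon dioxide and bicarbonate, was at 22.5, 119, 456 and 555 CPM against 4.55 to 10.7 CPM (4.86, adjusted p = 1.99e-14, edgeR). The antioxidant genes Cat (1.29) and Gpx1 (1.06) and the biliverdin reductase gene Blvrb (0.95) passed with smaller changes. Without the control diet library Cat (0.89) and Blvrb (0.73) no longer passed, and neither these 2 nor Gpx1 passed with part of the erythroid barcodes. With only the globin-dominated barcodes the log2 fold changes of Cat, Gpx1 and Blvrb were larger (3.24, 2.84 and 2.50), and with only those of 10 to 50% globin they were smaller (0.49, 0.38 and 0.38). Without the library term none of the 3 passed (1.14, 0.99 and 0.71). Against Ptprc barcodes Gpx1 (0.28) did not pass, nor did Blvrb, which turned to -0.031. Prdx2, a red cell peroxiredoxin that keratinocytes also express, was at 0.077.

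Genes of reticulocyte maturation, the clearing of organelles and proteins by ubiquitin and autophagy, were higher in 7 of 13 tested of 15 listed, with a median of 1.15 and none lower. Ube2l6, a conjugating enzyme for ubiquitin and ISG15, was at 161, 216, 657 and 729 CPM in erythroid barcodes against 5.50 to 8.06 CPM elsewhere (log2 fold change 5.67, adjusted p = 7.35e-20, edgeR). Mkrn1, a ubiquitin ligase, had a log2 fold change of 3.39, Ube2o, which marks ribosomal proteins for removal, one of 2.70, and Bnip3l, the receptor for mitochondrial clearance, one of 1.76. Dcaf12 (1.63), Gabarapl2 (1.18) and Rnf10 (1.15) also passed, Rnf10 not without the control diet library (0.89). With only barcodes of 10 to 50% globin Gabarapl2 (0.55) and Rnf10 (0.48) did not pass. With only globin-dominated barcodes Bnip3l (3.37), Dcaf12 (3.49), Gabarapl2 (2.92) and Rnf10 (2.81) did not pass, at larger fold changes, and these 4 did not pass without the library term (1.82, 1.63, 1.14 and 1.31). Map1lc3b was at 0.51 and did not pass (adjusted p = 0.0751, edgeR). It did pass with DESeq2 (0.67), against Ptprc barcodes (0.64), without upper limits (0.52) and without any limits (1.28). It also passed without the LNR (0.59) or the sham library (0.61), so its call depended on the setting.

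Transcription factors of the lineage were sparse. Gata1, Klf1 and Gfi1b, which act in nucleated precursors, had 0 UMIs in the 426 barcodes, where 0 allows up to 1.92 CPM over all of them. Elsewhere in the kept barcodes they had 33, 182 and 13 UMIs, and at those levels 0 UMIs in these barcodes does not show a difference. Of the 7 tested of 10 listed, Lmo2 (1.61) and Nfe2 (3.68, from 5 UMIs) were higher.

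Of 10 cell division genes, 6 were lower and none was higher, with a median of -1.37. Some of the 6 entered the test only through the other barcodes, where they are high. Mki67, the proliferation marker, was at 29.9, 43.1, 36.1 and 97.9 CPM in erythroid barcodes against 92.6 to 140.2 CPM elsewhere (log2 fold change -1.36, adjusted p = 7.67e-05, edgeR). Top2a, the topoisomerase that untangles dividing chromosomes, was at -2.45. In globin-dominated barcodes all 10 genes together had 0, 1, 14 and 15 UMIs in LNR, sham, SAR131675 and control diet, which is 327 and 386 CPM in the last 2, against 572 and 479 CPM in the other kept barcodes. In barcodes with 10 to 50% globin the genes together were lower still in these 2 libraries, at 116 and 296 CPM, although the control diet interval (253 to 345) lies within that of its globin-dominated barcodes (216 to 636). Between the 2 kinds of barcode Mki67 was at 1.52 and Top2a at 1.54, higher in globin-dominated ones, and neither passed (adjusted p = 0.447 and 0.740, edgeR).

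**Figure D4:**
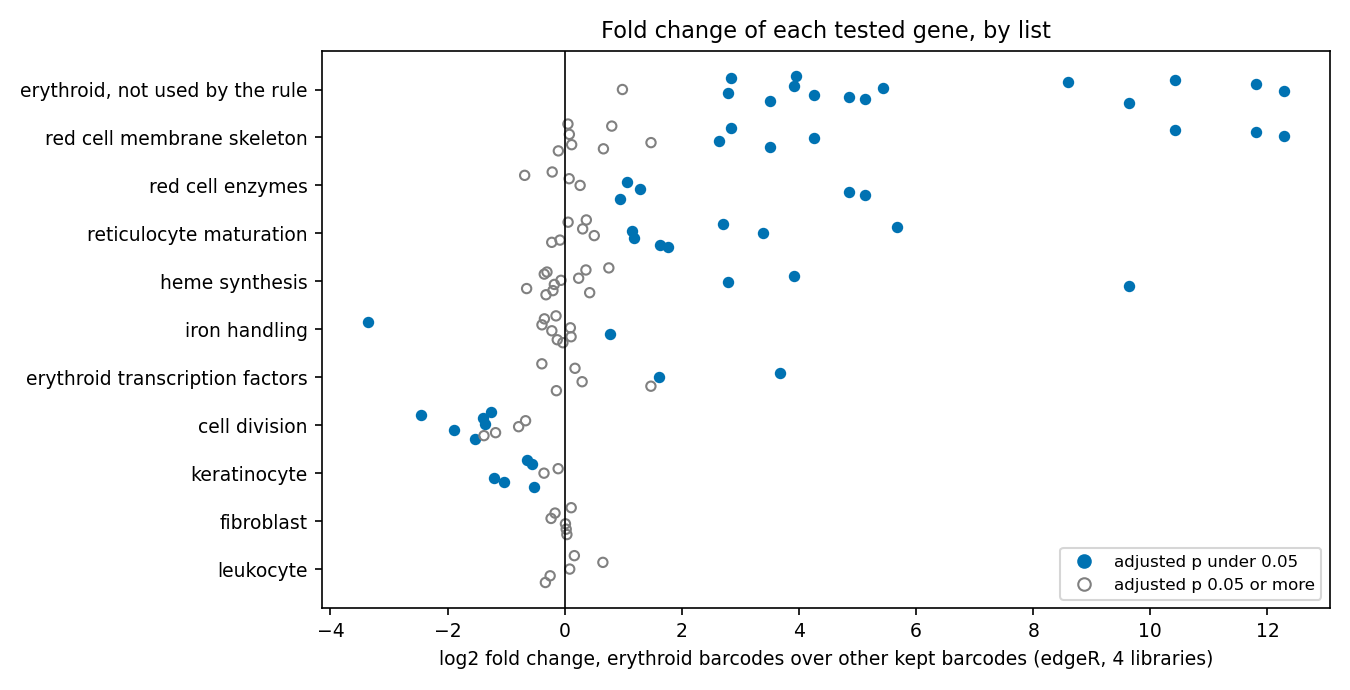
Log2 fold change of each tested gene of 11 lists between erythroid and other kept barcodes (horizontal axis), with filled blue points for genes with an adjusted p under 0.05 by edgeR and open grey points for the others. Erythroid genes lie at 2.79 or higher apart from Hemgn, most heme synthesis genes lie near 0, and 6 of 10 cell division genes are filled to the left of 0.

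Rsad2, an antiviral enzyme gene induced by interferon, was among the 10 largest rises. It was at 86.1, 194, 487 and 449 CPM in erythroid barcodes against 2.30 to 4.23 CPM elsewhere (log2 fold change 6.32, adjusted p = 8.83e-18, edgeR). It was detected in 19.0, 26.9, 43.6 and 48.7% of erythroid barcodes and in 0.458 to 0.918% of keratinocyte-type barcodes. Isg20, an interferon-induced exonuclease on the erythroid list, was at 105, 108, 229 and 192 CPM against 2.76 to 4.74 CPM (5.43). Paqr9 (6.099, 30 UMIs) and the theta globin gene Hbq1a were also among them, Hbq1a only through the erythroid sums.

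The 10 largest falls were genes without a single UMI in erythroid barcodes, so they give bounds only. They entered the test only through the other barcodes, where they are high, so their calls support nothing by themselves. Lce1f, a cornified envelope gene of keratinocytes, was at least 12.5-fold lower than its 24.0 CPM elsewhere, and Prr9 at least 10.8-fold, with a floor of 3 UMIs over all erythroid barcodes. The neutrophil granule genes Camp and Ngp were at least 11.9-fold and 8.79-fold lower. Lce1e, Il36a, Akr1c21 and Msmp were at least 7.30-fold to 8.36-fold lower, Dct, a melanocyte enzyme gene, at least 3.08-fold and Aadacl4 at least 2.53-fold. The calls of Dct and Aadacl4 were lost without the LNR or the control diet library, that of Aadacl4 also without SAR131675, and DESeq2 called neither these nor Lce1f and Lce1e. None of the 10 was called without the library term or with only globin-dominated barcodes.

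Markers of other cells were present in the erythroid barcodes. At least 3 of 7 keratinocyte genes were found in 45.3% of globin-dominated barcodes and in 69.1% of those with 10 to 50% globin, against 73.4% of other kept barcodes. At least 3 of 6 fibroblast genes were found in 3.73, 21.5 and 27.8%, and at least 3 of 5 leukocyte genes in 0.621, 5.66 and 6.59%. These shares pool the libraries. For leukocyte genes, barcodes with 10 to 50% globin were at 9.09% in LNR, 8.696% in sham, 6.52% in SAR131675 and 2.11% in control diet. Other kept barcodes were at 9.08, 7.75, 5.56 and 4.79%, so only control diet had the pooled order. The former rest on 2 to 6 barcodes each. For fibroblast genes the pooled order was reversed in LNR only (43.6 against 38.6%). No other cell list reached 3 genes in 79 of 161 globin-dominated barcodes and in 23 of 265 with 10 to 50% globin. Of the latter, 48 held 3 genes of each of 2 or more other lists, against 1 globin-dominated barcode. Finding 3 genes of a list depends on depth. Median UMIs outside the globins were 407 in globin-dominated barcodes, 4341 in those with 10 to 50% globin and 8612 in the other kept barcodes. The part of depth in these shares was not tested.

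In the test, 5 of 7 keratinocyte genes were lower in erythroid barcodes (Krt10 -1.20), and 0 of 6 fibroblast, 0 of 6 blood endothelial, 0 of 5 leukocyte and 0 of 6 macrophage genes passed. Among mural genes 2 of 5 were lower, and among osteoblast genes 3 of 5. These lower mural and osteoblast genes entered the test only through the other barcodes, where they are high. Among Schwann cell genes 2 of 5 were higher, with Mbp at 1.503, and Mbp was higher in 2 of 4 libraries. One gene was lower in the neutrophil list and 1 among 4 tested of macrophages that engulf red cells, and both entered only through the other barcodes. No T cell, B cell or platelet gene passed. The summed level of the 5 genes of red-cell-engulfing macrophages was 35.4 to 129 CPM in erythroid barcodes and 62.1 to 75.2 CPM elsewhere, and globin-dominated barcodes held 0, 0, 0 and 3 UMIs of them. The part of RNA from other cells in the barcodes with 10 to 50% globin was not tested.

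Globin-dominated barcodes were therefore compared with those of 10 to 50% globin in the same libraries. Only SAR131675 and control diet had 10 or more barcodes in both parts, so the fit rested on 2 libraries with 1 residual degree of freedom. Of 5574 genes tested, 181 were higher (3.25%) and 9 lower (0.161%) in globin-dominated barcodes, with a median log2 fold change of -0.29. Of the erythroid list, 15 of 16 tested genes were higher, but 9 of the 16 entered only through the globin-dominated sums, where they are high. All 7 that reached the filter's level in barcodes of 10 to 50% globin too were higher. None of the 7 keratinocyte genes passed in either direction, and 1 of 6 fibroblast genes, Lum, was lower. Lum entered the test only through the barcodes of 10 to 50% globin, where it is high. The fit with 1 residual degree of freedom gives p-values little support from replication. The 2 parts were also split by globin share, which the rule used. Median UMIs outside the globins were 407 and 4341 per barcode. A gene can thus rise as a share of these UMIs without more of its own UMIs per barcode. The part of this in the calls was not tested.

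Alas2 reached 3613 CPM in LNR, 5455 in sham, 12040 in SAR131675 and 11212 in control diet globin-dominated barcodes, against 558, 354, 455 and 563 CPM in those with 10 to 50% globin. All 4 globin-dominated values were above the others (log2 fold change 4.86 over SAR131675 and control diet, adjusted p = 0.000715, edgeR). The difference was larger for Car2 (6.34). Trim10, a ligase of terminal erythroid maturation, had 81 against 10 UMIs over these 2 libraries, Slc4a1 116 against 34, and the red cell membrane genes Epb42 and Kel 27 against 7 and 16 against 5. These 4 genes entered the test only through the globin-dominated sums, so their passing supports nothing by itself.

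Reticulocyte maturation genes were higher in 11 of 13 tested, and in 9 of the 11 that reached the filter's level in both kinds of barcode, among them Ube2o (5.11), Bnip3l (4.49) and Map1lc3b (3.10). Red cell enzymes were higher in 7 of 8, now with Prdx2 (2.91) and Glrx5 (3.88), the glutaredoxin of iron-sulfur cluster assembly. Heme synthesis was again higher only in Alas2, Fech (4.97) and Slc25a37 (4.74), of 9 tested. Of 4 iron genes tested Ftl1 was higher (3.15), but not with all 4 libraries (1.78, adjusted p = 0.0840, edgeR), and of 3 transcription factors Lmo2 (3.58). Over all 4 libraries, the 161 globin-dominated barcodes held 180 UMIs of Map1lc3b and the 265 with 10 to 50% globin held 471. Prdx2 had 141 and 418, Ftl1 414 and 1361, Lmo2 34 and 67 and Glrx5 113 and 150. More UMIs lay in globin-dominated barcodes for Ube2o (191 and 117), Bnip3l (545 and 493), Alas2 (997 and 746), Fech (259 and 192) and Slc25a37 (328 and 242).

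Of the 10 largest rises, all but Car2 entered the test only through the globin-dominated sums, so they are given as levels or as UMIs summed over SAR131675 and control diet. Isg15, a ubiquitin-like modifier, was at 1870 CPM in SAR131675 and 2083 CPM in control diet globin-dominated barcodes, against 12.3 and 37.9 CPM in those with 10 to 50% globin. In the few LNR globin-dominated barcodes it was at 328 CPM from 3 UMIs, and in sham at 0 UMIs. Irf7, an interferon regulatory factor, had 15 against 2 UMIs. Slfn14, a gene of the Schlafen family, had 15 against 0 UMIs, at least 68.6-fold higher, but 83.3% of its 12 SAR131675 UMIs came from 1 barcode, and DESeq2 did not call it. Apol11b had 72 against 15 UMIs, Fam220a 39 against 10, Paqr9 22 against 5 and Ank1 13 against 3.

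Of the 9 falls, Ccl21a (-4.74) encodes a chemokine of lymphatic vessels, Rgs5 (-4.10) marks pericytes and Lum (-3.10) encodes a matrix proteoglycan of fibroblasts. The others were Zfp36l1 (-2.90), Hpse2 (-2.73), Gas1 (-2.65), Slc38a2 (-2.50), Cxcl14 (-2.21) and Gsn (-2.10). Each had 1 to 47 UMIs in the globin-dominated barcodes, and DESeq2 called only Gsn. Ccl21a, Rgs5 and Lum, with 1, 1 and 2 UMIs there, entered the test only through barcodes of 10 to 50% globin. They are high in those barcodes, so the calls of these genes support nothing by themselves. Without the library term Ccl21a, Rgs5 and Hpse2 did not pass. With all 4 libraries Zfp36l1 (-1.55), Slc38a2 (-1.33) and Cxcl14 (-0.76) did not pass. The 475 Ccl21a UMIs in barcodes of 10 to 50% globin came from 4 SAR131675 and 6 control diet barcodes, and 1 barcode held 58.3 and 29.7% of them in each library. Rgs5 was found in 5 such barcodes of each library, with 53.1 and 94.8% of its UMIs in 1 barcode, so both falls rest on few barcodes.

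**Figure D5:**
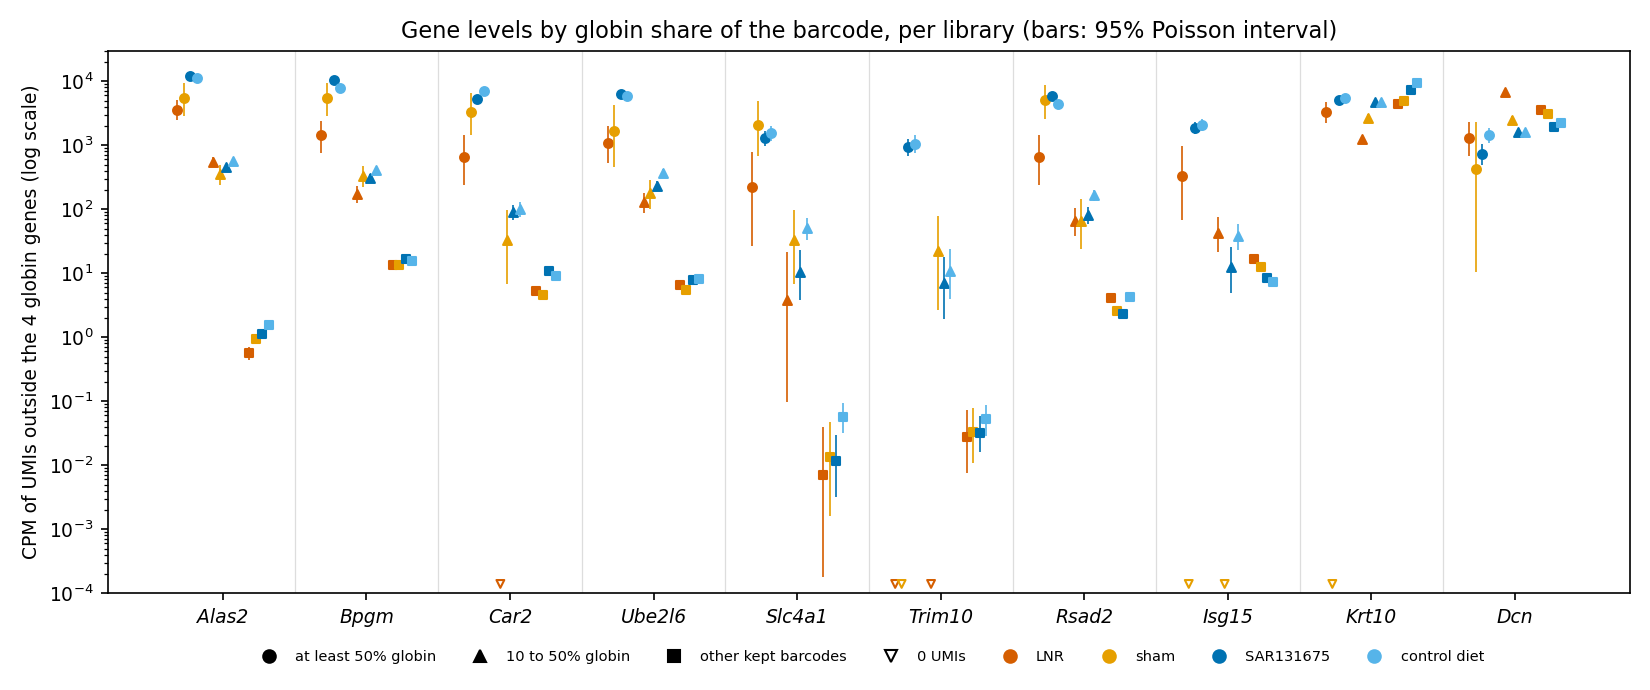
Level of 10 genes (CPM of UMIs outside the 4 globin genes, log axis) in globin-dominated barcodes (circles), barcodes with 10 to 50% globin (triangles) and other kept barcodes (squares) of each library, with 95% Poisson intervals; open triangles at the foot mark 0 UMIs. Alas2 falls from 3613 to 12040 CPM through 354 to 563 CPM to 0.561 to 1.54 CPM, whereas the keratinocyte gene Krt10 and the fibroblast gene Dcn show no such steps.

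Between the libraries of a pair, erythroid gene levels were compared without a test, with exact conditional intervals of the log2 ratio. The erythroid list summed to 5232 CPM in SAR131675 and 4924 CPM in control diet erythroid barcodes, a log2 ratio of 0.087 (0.015 to 0.16). Over all UMIs, globin included, the ratio was -0.00059, so its direction rests on the denominator. In globin-dominated barcodes it was 0.21 (0.12 to 0.30), in barcodes with 10 to 50% globin -0.35 (-0.48 to -0.22), and in globin-rich barcodes under 200 genes -0.66 (-0.71 to -0.61). No single direction held over the range of globin.

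Among single erythroid genes the ratios of SAR131675 over control diet were small and went both ways. For Alas2, at 1267 and 1262 CPM, the log2 ratio came to 0.0054 (-0.14 to 0.15). Bpgm was higher in SAR131675 by 0.18 (0.0072 to 0.35). Slc4a1 (-0.55, -1.04 to -0.062) and Car2 (-0.28, -0.52 to -0.050) were lower.

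For LNR over sham the erythroid list had a log2 ratio of -0.33 (-0.59 to -0.078), from 425 and 186 UMIs. Alas2 was at 662 and 485 CPM (0.45, -0.030 to 0.95) and Bpgm at 217 and 464 CPM (-1.09, -1.69 to -0.49). In barcodes with 10 to 50% globin the list stood at -0.16 (-0.45 to 0.15), an interval that includes 0, in globin-dominated barcodes at -1.22 (-1.72 to -0.72), from 8 and 3 barcodes, and under 200 genes at -0.083 (-0.21 to 0.049).

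The largest ratios between the libraries of a pair did not belong to genes of the erythroid list and often rested on 1 barcode. In SAR131675 against control diet the lowest were Ccl21a (-4.28), Mgp (-3.26), Fxyd6 (-2.85), the keratinocyte gene Flg (-2.73) and Cp (-2.52), and 1 control diet barcode held 76.2% of Mgp and 82.2% of Flg UMIs there. The highest were the myeloid genes S100a9 (65 against 0 UMIs, all from 1 barcode), Mgl2 (5.96), Lyz2 (5.74), Il1b (4.67) and H2-Eb1 (4.66), in 1 to 9 SAR131675 barcodes each. In LNR against sham, S100a9 (-5.79), Defb6 (-5.68), Krt79 (-5.63), Cst6 (-5.23) and Krt1 (-4.23) were lowest, with 62.0% or more of the sham UMIs of each from 1 barcode. Htra4, Mfap4, Col5a2, Medag and Acta2, with 53 to 97 UMIs in LNR and 0 in sham, were highest, and 1 LNR barcode held 94.3% of Acta2. Col5a2 and Medag were spread over 22 and 21 of the 63 LNR barcodes.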

How the data were processed

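Raw UMI counts per gene and barcode over 33696 genes were deposited by the authors. Per the file headers they were made with Cell Ranger 6.1.2 (LNR and sham) and 8.0.1 (SAR131675 and control diet), while the submitters' notes list 6.1.2 and GRCm39 for all libraries. No barcode had fewer than 500 UMIs. Erythroid barcodes, gene lists and tests were chosen with earlier results of these data known. Counts were summed per library over groups of barcodes and the 4 globin genes removed. Genes passing filterByExpr were tested with edgeR 4.0.16 (TMM, quasi-likelihood, library as a term, Benjamini-Hochberg over all genes tested, threshold 0.05), in R 4.3.3 with limma 3.58.1, and the procedure was tested on simulated data. The library term pairs the 2 sums of a library, since both come from the same suspension. DESeq2 1.42.0 was an alternative. Intervals are exact at 95% (Clopper-Pearson for shares, Poisson for counts, conditional for ratios), as computed with Python 3.11.15, numpy 2.4.6, scipy 1.17.1 and pandas 2.3.3, and figures were drawn with matplotlib 3.10.9. A count of 0 was given a floor of 3 UMIs. Named with values were list genes with at least 20 UMIs in erythroid barcodes, the 10 largest called changes per direction of each test that ran the same way in every library, and the 5 largest ratios per direction of each library pair among genes with 50 or more UMIs whose interval leaves out 0. Nfe2, Sptb, Ank1, Ermap, Slc40a1, Hemgn, the embryonic globins, Gata1, Klf1 and Gfi1b were singled out after their values were seen. Promoters came from RefSeq by gene symbol, matching 5 of 5. Some genes that the rule would name are not reported here, although they stay in the counts and medians of their lists.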

Additional observations from a re-analysis of the deposited data

Results flagged for a closer look

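Globin-rich barcodes with fewer than 200 genes, which no comparison of kept barcodes uses, made up 0.914% of deposited LNR barcodes (198 of 21669) and 0.603% of deposited sham barcodes (136 of 22539), a log2 ratio of 0.60 (0.28 to 0.92). The value stands out as a signal above its control in barcodes outside the main measurement. In the other pair the treated library was below its control, with 1.76% in SAR131675 and 3.27% in control diet (-0.89, -1.04 to -0.75). The intervals cover counting error only, each condition had 1 library, and the part of lysis, of blood in the tissue and of batch was not tested.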

How the results depend on the processing

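With erythroid barcodes taken from 50% globin, the log2 ratio of shares of SAR131675 over control diet was 0.27, and without limits on barcodes -0.74. The Hbb-bt share was then 20.1, 20.3, 19.2 and 20.3% (from 50%) and 15.2, 15.4, 15.1 and 16.3% (no limits) in LNR, sham, SAR131675 and control diet. The erythroid list of SAR131675 over control diet was -0.00059 with CPM over all UMIs, 0.21 from 50% globin and -0.66 under 200 genes, and that of LNR over sham -1.22 from 50%. From 50% globin Mgp turned to 0.86 and H2-Eb1 to -3.31, and under 200 genes Mgp to 1.03, Flg to 0.16, Cp to 0.45, Lyz2 to -0.29, H2-Eb1 to -0.14 and, for LNR over sham, Krt79 to 0.050. With only Ptprc barcodes as comparator Cpox turned to 0.98, Blvrb to -0.031, Fth1 to -1.08 and Ftl1 to -1.33. Against 176 genes higher and 354 lower, DESeq2 called 107 and 110, the fit without the replicate block 37 and 26, barcodes from 50% globin 106 and 8, the Ptprc comparator 1480 and 2237, no upper limits 269 and 680, and no limits 316 and 531. Higher genes were 33.2% of those called, 49.3% by DESeq2, 58.7% without the block and 93% from 50% globin. Leaving out each library in turn gave 128 to 244 higher and 234 to 403 lower, the lowest without control diet. For globin-dominated barcodes DESeq2 called 1 gene lower, no filter on low counts 64 lower, and all 4 libraries 86 higher. Without the replicate block that comparison gave 190 and 8. Leaving out a library was not run there, since 1 library leaves no residual degrees of freedom. The settings without limits in the test, with only barcodes of 10 to 50% globin, under 200 genes, and with all 4 libraries were chosen after seeing the data. The causes were not tested. The LNR and sham values rest on 63 and 26 erythroid barcodes.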

Other observations

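Globin-rich barcodes under 200 genes carried the erythroid list at high levels too. It summed to 56485 CPM in LNR, 59836 in sham, 47353 in SAR131675 and 74633 in control diet, over UMIs outside the globins, and at least 3 genes of the list were found in 62.4% of these 2019 barcodes against 2.52% of the other kept barcodes. Alas2 had 6708 UMIs there and 1743 in the 426 erythroid barcodes. At least 3 keratinocyte genes were found in 15.8% of them and at least 3 fibroblast genes in 0.198%. These globin-rich barcodes under 200 genes together held 70.3, 70.1, 59.7 and 75.0% of the deposited globin UMIs of LNR, sham, SAR131675 and control diet.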
